A study of Mus musculus with 64 samples.

Results

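The 37 genes described here encode the machinery that takes up, activates and oxidises fatty acids and releases the products as ketone bodies. They were chosen by name, all 37 were found among the 23338 genes of every library, and each was given a role from general knowledge: the carnitine shuttle (Cpt1a, Cpt2, Slc25a20), uptake, activation and binding (Slc27a2, Acsl1, Fabp1), the mitochondrial cycle (Acadvl, Acadl, Acadm, Acads, Hadha, Hadhb, Hadh, Acaa2), auxiliary enzymes for double bonds (Decr1, Decr2, Eci1, Eci2), electron transfer (Etfa, Etfb, Etfdh), peroxisomal oxidation (Ehhadh, Hsd17b4, Acaa1a, Acaa1b, Scp2, Phyh, Crot, Abcd3, Pex11a), acyl-CoA thioesterases (Acot1, Acot2, Acot3, Acot4, Acot12), and the ketone body and fuel switch genes (Bdh1, Pdk4). The study examined male and female mice of the inbred strain C57BL/6 at 4 stages, to ask when in development the sexes begin to differ in gene expression. The 64 samples described here hold 12 eight-cell embryos with 6 of each sex and 4 lines of ES cells with 2 of each sex. They also hold 24 fetal livers taken late in gestation and 24 adult livers, with 12 of each sex at either age. A second set of eight-cell embryos, which the study used for replication, is not among them. The 12 embryos came from natural matings and each library is 1 embryo, amplified with a single-cell protocol. The ES lines were derived from eight-cell embryos and kept in 2i medium, which holds inhibitors of a pair of signalling kinases, so each line is the descendant of 1 embryo. The mice were untreated, carried no engineered allele, and the adults ate standard chow and were killed in late morning.

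Long-chain fatty acids enter liver cells through transport proteins such as Slc27a2, are joined to coenzyme A by Acsl1, and reach the mitochondrial matrix as carnitine esters through Cpt1a, Slc25a20 and Cpt2, of which Cpt1a is the controlled step. In the matrix the acyl chain is shortened in repeated cycles that pass electrons to the respiratory chain, and the liver turns much of the resulting acetyl-CoA into ketone bodies for other organs, above all in suckling and in fasting. Peroxisomes shorten chains that mitochondria handle poorly, such as very long, branched and dicarboxylic ones. Many of these genes are known targets of PPAR alpha, a nuclear receptor that binds fatty acids, and the thioesterases split acyl-CoA back into free fatty acid and coenzyme A.

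Levels are given as CPM, the reads on a gene scaled to all reads on genes of its library, written as the median of the group with the lowest and highest library in parentheses, and fitted log2 values carry their standard error (SE) after ±. Where genes are compared with each other, the level is CPM per kilobase of exon. Reads on genes numbered 9857929 to 10386931 in the ES lines, 4659656 to 7725432 in the embryos, 5145371 to 8499603 in fetal livers and only 1567583 to 4757610 in the adult ones, where 3 reads, the smallest level taken as detectable, equal 0.631 to 1.91 CPM. These floors cover counting error only. The 12 hepatocyte markers summed to 54509.5 to 72985 CPM in fetal livers, 61738 to 77835 in adult males and 73773 to 91338 in adult females, against under 40 CPM in embryos and ES lines. The 11 erythroid markers summed to 5118 to 7447 CPM in fetal livers, where blood cells form, against 15.7 to 199 CPM in adult ones. The 4 globins among them were at or near 0 in every library, so these sums rest on the other 7. The 6 granulocyte markers summed to 1072 to 2205 CPM in fetal and 0 to 1.18 CPM in adult livers. In whole tissue, fewer cells of a type and less RNA per cell cannot be told apart. The 5 pluripotency markers summed to 2296 to 2534 CPM in the ES lines and stayed under 3 CPM in all livers. Nothing in the labels ties replicates to separate litters or cultures, so p-values measure the spread between these samples. Per the methods of the study these embryos came from 4 litters, so some are littermates. The labels do not name the litter, and it was not in the fits.

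Together the 37 genes took 0.210% to 0.289% of the reads on genes in eight-cell embryos, 0.164% to 0.171% in ES lines, 0.588% to 0.766% in fetal livers and, in the adult ones, 1.76% to 2.50%, and the ranges of the 4 stages did not overlap. The mean level was highest in adult liver for 30 genes, in fetal liver for 4 (Acot2, Hadh, Hadhb, Pdk4) and in eight-cell embryos for 3 (Acadl, Acadm, Slc25a20). Peroxisomal oxidation took the largest share of these reads in adult liver, at 9546 ± 1801 CPM (SD, n = 24) against 1307 ± 78.8 in fetal liver (SD, n = 24). Uptake, activation and binding reached 5051 ± 512 against 1637 ± 147 CPM. The mitochondrial cycle differed less, with 3305 ± 195 CPM in adult and 2501 ± 167 CPM in fetal liver. Per length, the leading gene of each role in adult liver was Fabp1 for uptake and binding (3990 CPM per kilobase), Scp2 for peroxisomal oxidation (1045), Acaa2 for the mitochondrial cycle (691), Etfb for electron transfer (226), Decr2 for double bonds (105), Bdh1 for ketone bodies (70.9), Acot12 for the thioesterases (60.9) and Cpt1a for the carnitine shuttle (59.8).

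**Figure D1:**
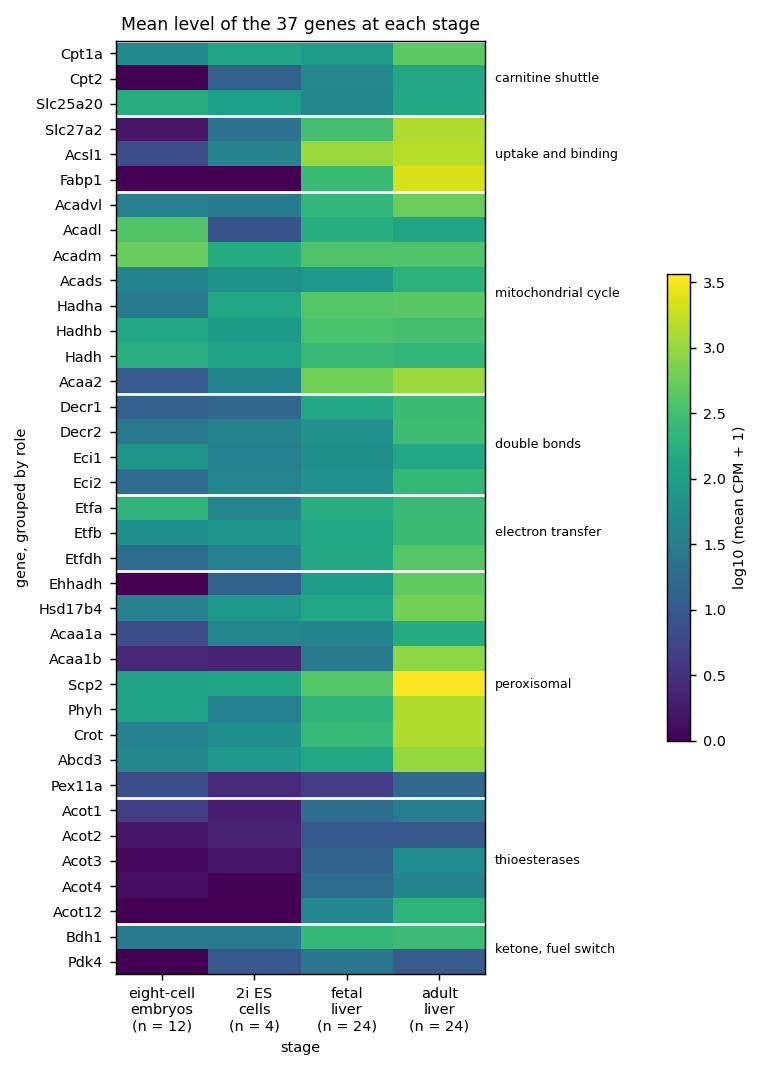
Mean level of each of the 37 genes (rows, grouped by role) at the 4 stages (columns), as log10 of mean CPM plus 1; n is given under each stage. The adult column is the brightest for 30 of the 37 genes, while Acadl, Acadm and Slc25a20 are brightest in eight-cell embryos.

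**Figure D2:**
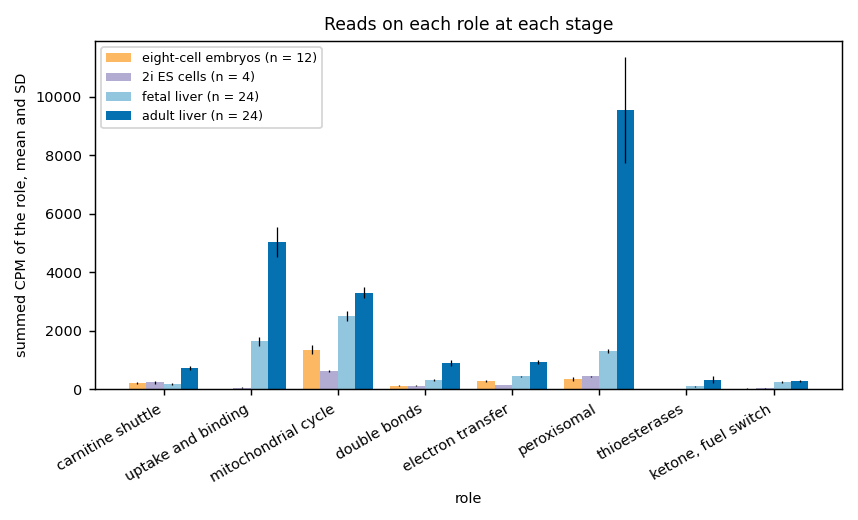
Summed CPM of the genes of each role at the 4 stages; bars are means over samples and error bars are SD. Peroxisomal oxidation stands at 9546 ± 1801 CPM in adult and 1307 ± 78.8 CPM in fetal liver, and the mitochondrial cycle at 3305 ± 195 and 2501 ± 167 CPM.

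Adult livers were compared with fetal livers to see which steps of the pathway differed after birth. Of the 37 genes, 29 were higher in adult liver and none was lower at an adjusted p under 0.05 and a log2 difference above 1 (edgeR), while 19.5% of the 12875 genes tested were called higher and 23.6% lower. The median log2 fold change of the 37 was 1.98, against -0.047 over all genes tested. In 26 of the 37 genes every adult liver was above every fetal liver, which held for 9.98% of the 13433 genes whose mean reached 1 CPM. In none was every adult liver below every fetal liver, which held for 36.7%. The fitted log2 values sit above the log2 of the plain CPM ratio because TMM, the scaling that edgeR applies, set factors of opposite sign in the 2 livers (mean log2 factor -0.26 in adult and 0.26 in fetal). With libraries scaled on the hepatocyte markers in place of TMM, the median of all genes moved to -0.89 and the calls over all genes from 2512 higher and 3034 lower to 1195 higher (9.28%) and 5936 lower. Under that scaling 19 of the 37 genes were higher and 1, Pdk4, was lower, and 8 of the 37 had a negative sign in place of 1. The 10 that lost the call were Acsl1 (0.24), Etfa (0.38), Acot1 (0.44), Acaa2 (0.48), Decr1 (0.69), Etfb (0.70), Acot4 (0.77), Eci1 (0.92), Acads (0.95) and Acot3 (0.98), with the log2 fold change under that scaling in parentheses.

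All 9 genes of peroxisomal oxidation rose, with a median log2 fold change of 3.06, and all 9 were also called under the hepatocyte scaling. Acaa1b, a peroxisomal thiolase that makes the last cut of the cycle, was at 27.9 CPM (19.4 to 34.9) in fetal and 943 CPM (484 to 1232) in adult livers (log2 fold change 5.61 ± 0.091, adjusted p = 1.22e-47). About 35.5% of the 50-base stretches of its transcript also occur in Acaa1a, so reads of the pair may be divided or lost. Scp2, which encodes both a thiolase for branched chains and the sterol carrier protein, went from 427 CPM (365 to 469.7) to 3488 CPM (1845 to 5643) (log2 fold change 3.55 ± 0.11, adjusted p = 1.31e-32), and 41.4% of its stretches occur in the pseudogene Scp2-ps2. Abcd3, the transporter that carries long and branched acyl chains into peroxisomes, stood at 135 CPM (119 to 148) in fetal and 1016 CPM (625.1 to 1106) in adult livers (log2 fold change 3.43 ± 0.045, adjusted p = 2.29e-53). For Phyh, which starts the breakdown of phytanic acid, the levels were 213 CPM (186 to 239.9) and 1366 CPM (960.3 to 1705) (log2 fold change 3.23 ± 0.056, adjusted p = 7.74e-48). All fetal livers lay below all adult livers for each of these genes. Crot, which makes carnitine esters for export from peroxisomes (3.06), Ehhadh, the bifunctional enzyme (2.9995), Hsd17b4, the second bifunctional enzyme (2.76), Pex11a, a protein of peroxisome division (2.76), and Acaa1a (2.52) rose on the same log2 scale.

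The genes of uptake and of the carnitine shuttle rose as well, 3 of 3 in each role, or 2 of 3 for uptake under the hepatocyte scaling. Fabp1, the liver fatty acid binding protein, was at 253 CPM (179 to 586) in fetal and 2174 CPM (1732 to 2931) in adult livers (log2 fold change 3.64 ± 0.084, adjusted p = 1.28e-40). The highest fetal liver was still below the lowest adult liver. That fetal maximum came from 1 female liver, and the next highest fetal liver had 315 CPM. The same female liver held the highest fetal values of Cpt2, Slc25a20, Acads, Hadh, Acaa2, Eci1, Eci2, Hsd17b4, Acaa1a, Acot1, Acot2, Acot3, Acot4 and Bdh1. It also held the lowest fetal values of Slc27a2 and Acaa1b, and the fits were not repeated without it. Slc27a2, a very long-chain acyl-CoA synthetase, had a log2 fold change of 2.61 ± 0.048, and Acsl1, which activates long-chain fatty acids, one of 1.08 ± 0.043, or 0.24 and not called under the hepatocyte scaling. Cpt1a went from 88.6 CPM (55.4 to 137) to 458 CPM (340.4 to 559) (log2 fold change 2.95 ± 0.083, adjusted p = 5.91e-36), the largest change in the shuttle. Its partners Slc25a20, the carrier across the inner membrane (2.21), and Cpt2, which returns the chain to coenzyme A (2.07), rose less far on that scale.

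The mitochondrial cycle was split. Acadvl, which acts on very long chains (1.88), Acads, which acts on short chains (1.79), and Acaa2, the thiolase, rose, and the other 5 of 8 were not called. Under the hepatocyte scaling only Acadvl of these 8 was called (1.04), and Acads had 0.95. For Acaa2 the levels were 613 CPM (524 to 785) in fetal and 1079.5 CPM (913 to 1175) in adult livers (log2 fold change 1.32 ± 0.043, adjusted p = 1.89e-34). Under that scaling its log2 fold change was 0.48. Acadl, the long-chain dehydrogenase, was at 159 CPM (139 to 241) in fetal and 119 CPM (97.6 to 162) in adult livers, with overlapping ranges (log2 fold change 0.14 ± 0.051, and -0.71 under the hepatocyte scaling). Hadh, the dehydrogenase for medium and short chains, was at 259 CPM (239 to 338) and 219.7 CPM (169.7 to 295) (0.34 ± 0.043, and -0.51 under that scaling). The plain CPM of both was therefore lower in adult liver while the fitted value was slightly positive. Hadhb, a subunit of the trifunctional protein, had levels of 346 CPM (267 to 386) and 317 CPM (290.4 to 386) (0.49 ± 0.033 and -0.35), and 62.4% of its stretches also occur in other genes, nearly all in the pseudogene Gm13910. Its partner Hadha (0.67 ± 0.028 and -0.18) and Acadm, the medium-chain dehydrogenase (0.58 ± 0.037 and -0.27), also changed sign with the scaling.

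All 7 helpers of the cycle rose by TMM, and 3 of them (Decr2, Eci2 and Etfdh) were also called under the hepatocyte scaling. All 4 enzymes for double bonds were called, and Decr2, the peroxisomal dienoyl-CoA reductase, went from 61.03 CPM (49.2 to 82.9) to 285 CPM (224 to 361) (log2 fold change 2.71 ± 0.054, adjusted p = 4.53e-45). Eci2 (2.46), Eci1 (1.77) and Decr1 (1.53), which shift or reduce double bonds, followed on that log2 scale. All 3 genes that hand electrons to the respiratory chain rose too, with Etfb at 129.6 CPM (119 to 163) in fetal and 258 CPM (233 to 316) in adult livers (log2 fold change 1.54 ± 0.039, adjusted p = 4.66e-40). The Etfb value is uncertain because 67.3% of its stretches occur in the pseudogene Gm45233. Etfdh (2.06) and Etfa (1.23) completed the group.

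Of the 5 thioesterases, 4 were called higher over both sexes together, Acot12 alone was also called under the hepatocyte scaling, and Acot2, the mitochondrial enzyme, was not called. The sexes differed for Acot3 and Acot4 in adults: median levels in adult males were 2.65 CPM for Acot3 and 17.7 CPM for Acot4, against 11.6 and 15.7 CPM in fetal males. Acot2 was at 8.67 CPM (5.55 to 16.7) in fetal and 7.91 CPM (2.66 to 20.4) in adult livers, with a log2 fold change of 0.41 ± 0.13, or -0.45 under the hepatocyte scaling. Acot12, which acts on acetyl-CoA, went from 42.4 CPM (35.7 to 57.9) to 197 CPM (153 to 278) (log2 fold change 2.75 ± 0.058, adjusted p = 8.75e-44). Both genes of the ketone body and fuel switch group were not called. Bdh1, which makes 3-hydroxybutyrate, the main ketone body, stood at 226 CPM (188 to 337) and 269.7 CPM (211 to 351) (0.81 ± 0.040 and -0.029). Pdk4, a kinase that turns off pyruvate dehydrogenase so that cells burn fat in place of glucose, was the only gene of the 37 with a negative fitted value by TMM, at 23.7 CPM (14.2 to 35.3) in fetal and 8.58 CPM (3.57 to 27.9) in adult livers (log2 fold change -0.87 ± 0.14, adjusted p = 2.51e-07). The 2 ranges overlapped. Its log2 fold change was -1.70 under the hepatocyte scaling and -1.04 in the adult livers with at least 40% of mapped reads on genes, past the threshold in both.

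**Figure D3:**
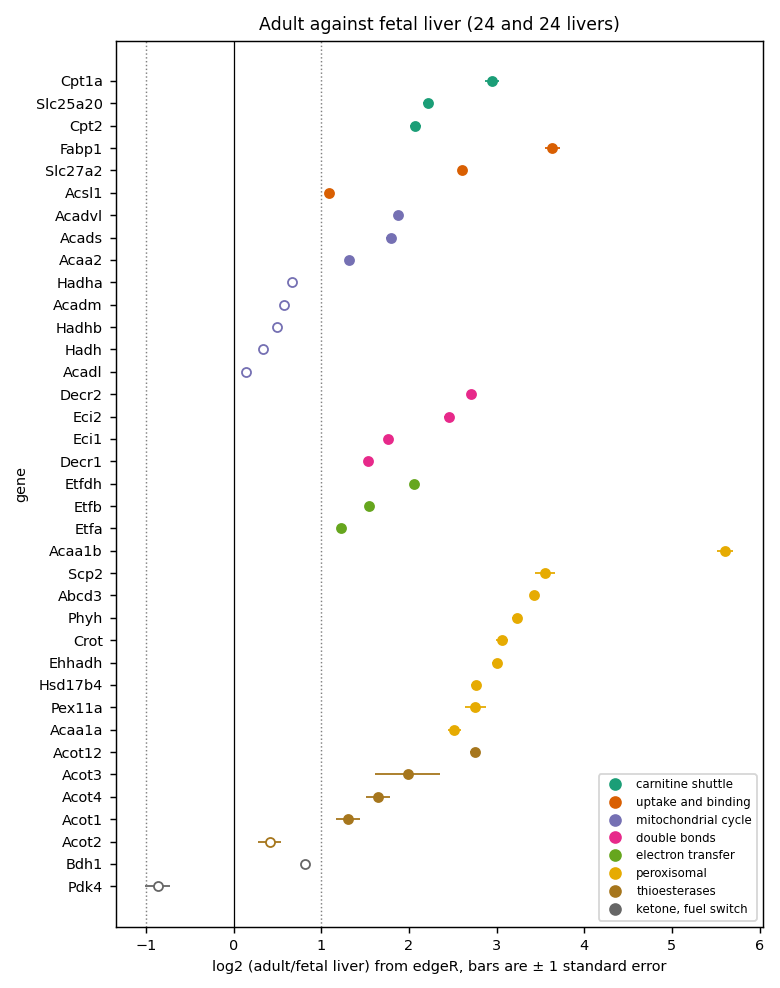
Log2 fold change of adult over fetal liver for each of the 37 genes from the fit over 24 and 24 livers, grouped and coloured by role; bars are ± 1 SE, filled points passed the test and dotted lines mark a log2 of 1 in each direction. Peroxisomal genes lie between 2.52 and 5.61, and Pdk4 at -0.87 is the only negative point, whereas 7 further genes turn negative under the hepatocyte scaling.

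PPAR alpha binds DNA at a pair of repeats with 1 base between them, written AGGTCANAGGTCA, so the 300 bases around each start site (250 before to 50 after, RefSeq, GRCm38.p6) were searched on both strands for these 13 letters with up to 2 mismatches; the N was free. For 34 of the 37 genes a start site was matched, giving 38 windows. A match lay in 5 of the 38 windows (13.2%), those of Fabp1, Acot12, Etfa, Slc25a20 and Acot4, and in 3.86% of 32851 windows over all genes. The STAT5 motif TTCNNNGAA was found in 3 of the 38 (7.89%) and in 8.30% of all windows. These are letter matches, not measured binding. The sequences below show the leading gene for uptake and binding, the leading thioesterase, and a neighbouring pair of thioesterases of which 1 has a match and 1 has none. They run from 5′ to 3′ on the plus strand up to the annotated start of the gene, with the match in capitals, and lie at chr6:71199629-71199826 (Fabp1), chr13:91741271-91741511 (Acot12), chr12:84038129-84038378 (Acot4) and chr12:84051894-84052143 (Acot3):
Fabp1: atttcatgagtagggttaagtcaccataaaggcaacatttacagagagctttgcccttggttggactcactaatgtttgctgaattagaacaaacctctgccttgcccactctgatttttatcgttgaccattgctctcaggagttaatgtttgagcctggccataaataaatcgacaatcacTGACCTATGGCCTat
Acot12: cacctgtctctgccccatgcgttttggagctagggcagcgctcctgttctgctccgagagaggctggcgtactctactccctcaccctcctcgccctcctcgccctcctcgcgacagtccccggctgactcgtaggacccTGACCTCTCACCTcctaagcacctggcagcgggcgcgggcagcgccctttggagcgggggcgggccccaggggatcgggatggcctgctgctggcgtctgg
Acot4: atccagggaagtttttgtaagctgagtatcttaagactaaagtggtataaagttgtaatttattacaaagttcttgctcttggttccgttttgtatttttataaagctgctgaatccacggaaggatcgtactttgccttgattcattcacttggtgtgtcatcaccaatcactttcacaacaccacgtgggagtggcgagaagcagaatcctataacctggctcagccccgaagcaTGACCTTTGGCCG
Acot3: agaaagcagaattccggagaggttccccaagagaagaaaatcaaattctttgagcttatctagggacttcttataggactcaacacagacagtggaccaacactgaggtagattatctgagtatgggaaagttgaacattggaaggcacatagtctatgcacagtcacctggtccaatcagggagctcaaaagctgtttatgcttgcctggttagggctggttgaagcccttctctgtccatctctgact

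Male and female adult livers were then compared gene by gene. Of the 37 genes, Scp2 and Phyh were higher in males, and Ehhadh, Acot1, Acot2, Acot3, Acot4 and Pdk4 were higher in females, at an adjusted p under 0.1 and a log2 difference above 0.5. Over the 10372 genes tested, 3.01% were higher in males and 6.48% higher in females. The sexes did not overlap at all for Scp2 and Phyh, with every male above every female (1.24% of the 12217 genes whose mean reached 1 CPM), nor for Ehhadh, Acot3 and Acot4, with every female above every male (1.32%). Another 13 genes passed the adjusted p with a smaller difference, and 20 of the 37 had a log2 difference under 0.2 in size. Several library measures moved with sex in adult liver. Alignments that were not unique numbered 1.09 to 2.26 per counted read in males and 0.703 to 1.17 in females. The sums of the 12 hepatocyte markers were mostly lower in males (values above, with some overlap). Gene by gene these markers went both ways, with 5 higher and 7 lower in males and 1 called in each direction. Alas2, which makes heme and was the 1 erythroid marker of 11 high enough to test, was at 169.8 CPM (155 to 193) in males and 24.5 CPM (10.9 to 40.01) in females. The 7 macrophage markers summed to 314 to 578 CPM in males and 422 to 909.8 CPM in females. Their part in the sex differences was not tested. In these adult livers adipocyte markers summed to at most 56.4 CPM, in 1 female liver, and skeletal muscle markers to at most 1.91 CPM.

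Among the peroxisomal genes the sexes differed in both directions. Scp2 was at 5026 CPM (4463 to 5643) in males and 2190.0 CPM (1845 to 2513) in females (log2 male/female 1.18 ± 0.054, adjusted p = 5.77e-18). The sum of the whole role, to which Scp2 gives the most reads, was 10430.4 to 12231 CPM in males and 6918 to 8839 CPM in females. Phyh was at 1565 CPM (1476 to 1705) in males and 1119.9 CPM (960.3 to 1256) in females (log2 male/female 0.51 ± 0.051, adjusted p = 1.87e-09). Ehhadh went the other way, at 385 CPM (310.0 to 506) in males and 587 CPM (519.7 to 754) in females (log2 male/female -0.62 ± 0.067, adjusted p = 8.66e-09). The adult libraries fall into 16 with at least 40% of mapped reads on genes and 8 with less, 8 and 4 of each sex, and the log2 difference was similar in both: for Scp2 1.17 in the 16 livers with the higher share of reads on genes and 1.22 in the other 8, for Phyh 0.54 and 0.45, and for Ehhadh -0.62 and -0.60. Phyh was therefore not called in the 8 livers alone.

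The thioesterases Acot1 to Acot4 lie side by side on the plus strand of chromosome 12 (GRCm38): Acot2 at chr12:83987861-83993873, Acot1 at chr12:84009490-84018371, Acot4 at chr12:84038379-84048601 and Acot3 at chr12:84052144-84060402. All 4 were higher in females. Acot3, a peroxisomal enzyme for long chains, was at 2.65 CPM (0.622 to 9.96) in males and 98.9 CPM (31.8 to 201) in females (log2 male/female -4.74 ± 0.37, adjusted p = 8.37e-10). The male values rest on 1 to 36 reads, and the lowest are at or below the 3 reads taken as detectable. For Acot4, a peroxisomal enzyme for dicarboxylic acyl-CoA, the values were 17.7 CPM (14.9 to 30.3) and 60.99 CPM (36.95 to 81.02) (log2 male/female -1.57 ± 0.13, adjusted p = 9.20e-11). The mitochondrial Acot2 was at 4.57 CPM (2.66 to 9.90) and 11.4 CPM (6.68 to 20.4) (log2 male/female -1.25 ± 0.19, adjusted p = 5.77e-06), with ranges that overlapped. The cytosolic Acot1 was at 21.5 CPM (16.01 to 51.6) and 37.99 CPM (16.2 to 52.1) (log2 male/female -0.58 ± 0.19, adjusted p = 0.0278), and the 2 sexes covered nearly the same range. Between the 16 and the 8 livers the log2 difference was -4.59 and -5.79 for Acot3, -1.57 and -1.53 for Acot4, -1.13 and -1.69 for Acot2, and -0.69 and -0.29 for Acot1, whose adjusted p in the 8 livers was 0.752. Shared stretches make up 33.2% of Acot1, 27.7% of Acot2, 19.5% of Acot3 and 4.88% of Acot4, so the values of Acot1 and Acot2 in particular may hold or lose reads of their neighbours. Acot12, which lies on chromosome 13 and shares no stretch, had a log2 male/female of -0.33 ± 0.066.

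Pdk4 was at 6.02 CPM (3.57 to 14.01) in males and 11.1 CPM (5.11 to 27.9) in females (log2 male/female -0.76 ± 0.24, adjusted p = 0.0183). The ranges overlapped, and the difference was -0.47 with an adjusted p of 0.163 in the 16 livers and -1.28 in the 8. Of the genes that were not called, the largest differences were those of Pex11a and Acaa1a. Pex11a was at 18.1 CPM (11.98 to 34.2) in males and 12.4 CPM (8.99 to 20.3) in females, with a log2 male/female of 0.49 ± 0.15, adjusted p = 0.0120. Acaa1a was at 177 CPM (143 to 205) in males and 124 CPM (100.2 to 170.5) in females, with a log2 male/female of 0.42 ± 0.076, adjusted p = 6.83e-05. Pex11a passed the 0.5 threshold with DESeq2, with DESeq2 size factors in edgeR and with no filter on low counts, and both genes passed it in the 8 livers with the lower share of reads on genes. The carnitine shuttle showed little difference between the sexes, with log2 male/female of 0.093 ± 0.070 for Cpt1a, 0.11 ± 0.081 for Cpt2 and 0.0046 ± 0.068 for Slc25a20. Fabp1 was at 0.060 ± 0.073 and the 8 genes of the mitochondrial cycle lay between -0.27 (Hadh) and 0.073.

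**Figure D4:**
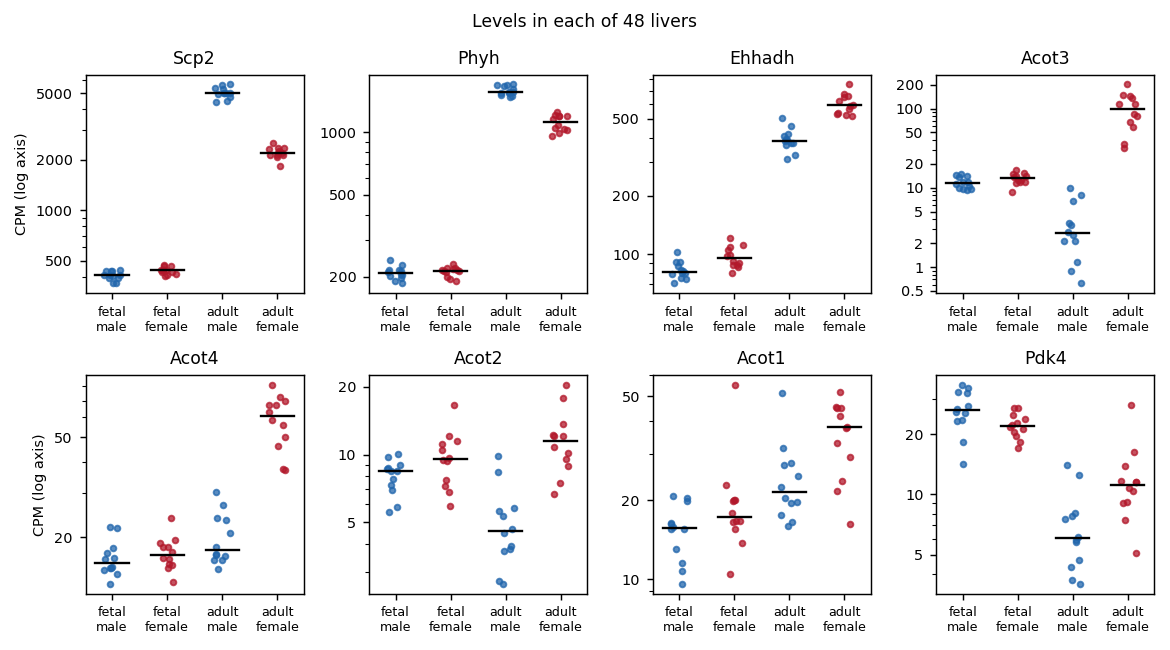
CPM (log axis) of the 8 genes called between the sexes in adult liver, in each of 48 livers; blue points are males, red points females and black lines medians, 12 livers in each column. Adult males and females do not overlap for Scp2, Phyh, Ehhadh, Acot3 and Acot4, and fetal males and females overlap for all 8 genes.

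In fetal liver no gene of the 37 was called between the sexes by edgeR or by DESeq2, although 22 had an unadjusted p under 0.05 with edgeR. Of the 12930 genes tested, 3.81% were called higher in males and 0.828% lower. By adjusted p alone, without the fold threshold, 20 were lower in males and 1, Pdk4, was higher, where 19.5% and 17.7% of all genes were. The largest of the 21 in size was that of Pex11a (-0.38 on the log2 scale). Acads stood at 71.7 CPM (62.5 to 80.1) in males and 85.6 CPM (80.5 to 112) in females (log2 male/female -0.30 ± 0.049, adjusted p = 4.69e-05). Acads was lower in every male than in any female, which held for 0.185% of the 13548 genes whose mean reached 1 CPM, while no gene of the 37 was higher in every male, which held for 1.68%. Among reads aligned to 1 place, those outside genes made up 39.9% to 49.0% in fetal males and 34.1% to 38.1% in fetal females, with no overlap. Reads aligned to several places are left out of these percentages. With the share of reads on genes in the fit, 1 of the 37, Acaa1b, was lower in males by adjusted p alone (log2 male/female -0.46 ± 0.12, adjusted p = 0.0851), as were 0.184% of the 13582 genes tested. SEs were larger in that fit, for example 0.099 against 0.064 for Acaa1a. Because the reads outside genes moved with sex, sex and this library measure cannot be told apart in fetal liver.

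Whether the sex difference itself differed between fetal and adult liver was tested with an interaction term over the 48 livers. For 6 of the 37 genes the male/female ratio was larger in adult than in fetal liver (5.19% of the 13026 genes tested) and for 4 it was smaller (8.53%). All 6 were among the 9 genes given the role of peroxisomal oxidation, of which the other 3 were not called. They were Scp2 (1.33 ± 0.068), Pex11a (0.92 ± 0.20), Acaa1a (0.74 ± 0.10), Acaa1b (0.60 ± 0.13), Hsd17b4 (0.58 ± 0.065) and Phyh (0.58 ± 0.067), as log2 differences between the 2 ratios. The 4 with a smaller ratio were Acot3 (-4.55 ± 0.37), Acot4 (-1.46 ± 0.16), Pdk4 (-0.97 ± 0.26) and Acot2 (-0.92 ± 0.24). Acot3 and Acot4 are peroxisomal enzymes too, although they were grouped with the thioesterases. Decr2 is also peroxisomal but was grouped with the 4 enzymes for double bonds. None of those 4 had a called interaction (log2 between -0.099 and 0.20). Among 12 other peroxisomal genes of the pathway, 4 had a larger ratio in adult liver and 3 a smaller one. For Acot3 the fetal levels were 11.6 CPM (9.29 to 14.8) in males and 13.2 CPM (8.97 to 16.8) in females, so the adult males lay mostly below the fetal livers and the adult females above them. Scp2 was at 410.1 CPM (365 to 440.1) in fetal males and 438 CPM (406 to 469.7) in fetal females, and adults of both sexes were higher. Acot4 was at 15.7 CPM (13.02 to 21.97) and 16.97 CPM (13.2 to 23.9) in fetal males and females, close to the adult males. For Acaa1a, Acaa1b, Hsd17b4 and Pex11a the fetal log2 ratio was negative (-0.27, -0.24, -0.17 and -0.38) and the adult one positive (0.42, 0.32, 0.37 and 0.49), and the reads outside genes moved with sex in the fetal libraries as given above. With the share of reads on genes in the fit, the fetal log2 ratio was -0.12 for Acaa1a, -0.46 for Acaa1b, -0.12 for Hsd17b4, -0.50 for Pex11a and -0.013 for Pdk4, which had 0.26 without it. The interaction itself was not fitted with that share. Hsd17b4 was at 715 CPM (623 to 802) in adult males and 551 CPM (475 to 624) in adult females, and Acaa1b at 1002 CPM (786 to 1232) and 793 CPM (484 to 1110.4). All 10 interactions were also called with the 16 or the 8 adult livers alone.

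**Figure D5:**
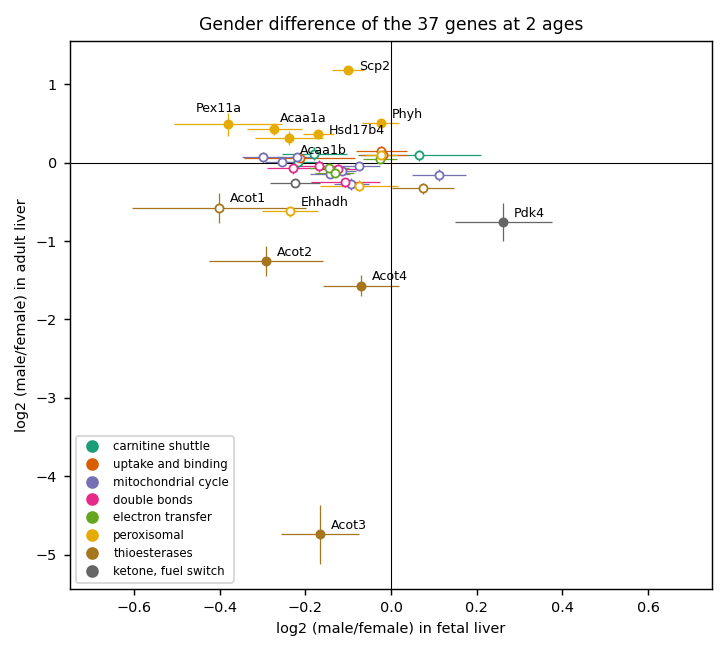
Log2 male/female in fetal liver (horizontal) against adult liver (vertical) for the 37 genes, coloured by role, with bars of ± 1 SE; filled points are the 10 genes with a called interaction. Acot3 lies at -4.74 in adult and -0.17 in fetal liver, Scp2 at 1.18 and -0.10, and most other points lie near 0 on both axes.

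Fetal liver was also compared with the ES lines, which were sequenced with the same kit. Of the 37 genes 28 were higher in fetal liver and 1 was lower, where 32.4% and 23.8% of the 14333 genes tested were, and the median log2 fold change was 2.17 against 0.034 over all genes. Fabp1 and Acot12 had no read in any of the 4 ES lines or 12 embryos, which allows at most 0.304 CPM in an ES line, so mean fetal levels were at least 868-fold higher for Fabp1 and at least 144-fold higher for Acot12. The lower gene was Slc25a20, at 44.7 CPM (34.8 to 61.2) in fetal livers and 101 and 116 CPM in the male lines and 92.9 and 90.6 CPM in the female lines, with a log2 fold change of -1.02 ± 0.072, just past the threshold. It was not called with DESeq2, with DESeq2 size factors, with no filter, or without either male line. Cpt1a was not called (-0.34 ± 0.18), with 121 and 168 CPM in the male lines and 108 and 97.3 CPM in the female lines.

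The ES lines and the embryos differ in library protocol as well as in stage, and the 2 cannot be told apart. Of the 32 genes tested, 7 were higher in ES lines and 7 lower, where 31.4% and 21.5% of the 12478 genes were. Acadl was the largest fall, from 401 CPM (315 to 483) in embryos to 8.38 and 9.04 CPM in the male lines and 7.10 and 4.97 CPM in the female lines (log2 fold change -6.15 ± 0.25, adjusted p = 5.48e-12). Embryos thus held more Acadl by CPM than any liver. Etfa, from 205 CPM (143 to 255) to 31.4 and 42.95 CPM in the male lines and 42.9 and 46.5 CPM in the female lines (-2.72), and Acadm, from 535 CPM (295 to 702) to 177 and 151 CPM in the male lines and 165 and 145 CPM in the female lines (-2.15), also fell. Phyh (-2.08), Eci1 (-1.45), Slc25a20 (-1.12) and Hadh (-1.03) completed the lower group. Ehhadh and Pdk4 had no read in any embryo, where 3 reads equal at most 0.644 CPM, so mean levels in ES lines were at least 18.5-fold and 13.4-fold higher. Cpt2 was at 0 in 11 of the 12 embryos and had 11.5 and 12.6 CPM in the male lines and 10.1 and 11.1 CPM in the female lines. Slc27a2 was likewise at 0 in 11 embryos and had 34.4 and 8.65 CPM in the male lines and 19.5 and 23.4 CPM in the female lines. Acsl1 (2.56), Acaa1a (2.47) and Hadha (1.81) were the other genes that rose. With DESeq2 size factors in place of TMM, which moved the median log2 of all genes from 0.44 to 0.79, 11 were higher and 5 lower.

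Between the sexes, 2 of the 33 genes tested were called in the ES lines, both higher in males, where 3.42% of the 12678 genes were called higher and 6.08% lower. Bdh1 had 40.3 and 40.3 CPM in the male lines and 22.6 and 11.3 CPM in the female lines (log2 male/female 1.22 ± 0.31, adjusted p = 0.0892 by edgeR) and Phyh 40.7 and 46.4 CPM in the male lines and 30.1 and 27.6 CPM in the female lines (0.56 ± 0.12, adjusted p = 0.0683). The median log2 male/female of the 33 was -0.029 with all 4 lines, 0.015 without the second male line and -0.085 without the first. Without either female line edgeR called 0 of the 13120 and 13108 genes tested, so those fits say nothing about the 37 in particular (2 of them at an unadjusted p under 0.05 in each). In each of these fits the lone line was assumed to vary like the others. DESeq2 called 1. In the embryos none of the 27 genes tested was called by edgeR or by DESeq2, and 2 had an unadjusted p under 0.05 with edgeR, where 0.044% of the 9087 genes were called higher in males and 0.22% lower.

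Pdk4, Cpt1a, Acot1, Acot2 and Pex11a are all known to respond to fasting, so it was asked whether Pdk4 moved with the other 4 from liver to liver, after the mean of each sex was removed. The 8 relations (4 genes in each liver stage) were tested by permutation within sex, with adjustment over the 8. None passed an adjusted p of 0.05. The closest was Cpt1a in fetal liver, with Pearson r = 0.48 (permutation p = 0.0088, adjusted p = 0.071) and Spearman rho = 0.51 (permutation p = 0.0093, adjusted p = 0.074) over 24 livers, and r = 0.47 without the 2 livers farthest from the median of Pdk4. In adult liver the Pearson r of Pdk4 with Cpt1a was -0.13. Adult Pdk4 was as low as 3.57 CPM, and 3 reads equal 0.631 to 1.91 CPM in these libraries, so the adult relations rest on few reads. For Acot1 in adult liver r was 0.35 (permutation, adjusted p = 0.31), 0.0046 without the 2 farthest livers, 0.15 in the 16 livers with the higher share of reads on genes and 0.81 in the other 8.

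Of 51 other genes of the pathway, 45 could be tested between adult and fetal liver. By TMM 27 of these rose and 3 fell, where 19.5% and 23.6% of all genes tested did, and their median log2 fold change was 1.24. Their values under the hepatocyte scaling are not given here. The 3 with the largest rise were Nudt7, a peroxisomal hydrolase of coenzyme A (5.62 ± 0.14), Slc27a5, a transporter and bile acid ligase (4.77 ± 0.052), and Hacl1, a lyase that shortens branched chains in peroxisomes (3.48 ± 0.11). Ppara itself was at 215 CPM (183 to 274) in fetal and 392 CPM (322 to 549) in adult livers (1.42 ± 0.055). The 3 that fell were Acot6 (-2.26 ± 0.22), Cpt1c, a form of the carnitine transferase typical of brain (-1.97 ± 0.22), and Oxct1, which lets tissues use ketone bodies and is known to be low in hepatocytes. Oxct1 went from 52.99 CPM (43.03 to 62.2) to 7.79 CPM (3.51 to 14.6) (log2 fold change -2.15 ± 0.066, adjusted p = 9.20e-36).

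Between the sexes in adult liver, 1 of the 43 other pathway genes tested was higher in males and 10 were higher in females, where 3.01% and 6.48% of all genes tested were. Nudt7 was the 1 higher in males, at 749.8 CPM (556 to 914) in males and 286 CPM (209 to 473) in females (log2 male/female 1.32 ± 0.11, adjusted p = 4.55e-10). Hacl1 was at 439 CPM (335 to 533) and 852 CPM (673 to 1160.3) (log2 male/female -1.04 ± 0.090, adjusted p = 1.78e-10). Abcd2, a peroxisomal transporter related to Abcd3 and named after its values were seen, was at 17.7 CPM (4.44 to 42.05) and 191 CPM (144 to 266) (log2 male/female -3.40 ± 0.22, adjusted p = 2.50e-11), while fetal males and females had 191 CPM (145 to 249) and 178 CPM (163 to 275). Interactions of sex with stage were called for 12 of 46 tested, 6 with a larger ratio in adult liver and 6 with a smaller one, where 5.19% and 8.53% of all genes tested were.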

How the data were processed

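The authors deposited counts: for each of 64 libraries, the reads HTSeq placed on each of 23338 genes, as whole numbers, after alignment to mm10 with TopHat2 2.0.4 and Bowtie2 2.1.0 and removal of duplicates with Picard (per the labels and the methods of the study), with no normalization. ES and liver libraries were made with a stranded total RNA kit, and the strand setting of the counting was not given in the sources used here. Duplicate removal limits the counts of abundant genes, and reads that align to several places were not counted, which affects the genes with near-identical copies named in the report. The 5 summary rows of each file were left out.

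Samples were grouped by their labels for stage and sex. Counts were fitted with edgeR 4.0.16 in R 4.3.3 (TMM, filterByExpr, robust quasi-likelihood F test, two-sided, Benjamini-Hochberg over all genes tested), with sex as covariate between stages. Stages were called at an adjusted p under 0.05 and a log2 difference above 1, sexes and interactions at 0.1 and 0.5, the thresholds of the study. DESeq2 1.42.0, its size factors, no filter, no fold threshold, a covariate for reads on genes, hepatocyte marker scaling and leaving out single ES lines were alternatives. Per-length levels used GENCODE exons, and start sites came from RefSeq (GRCm38.p6). Correlations of log2(CPM + 0.5) used 100000 resamples. The steps were tested on simulated counts.

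The 37 genes and all other lists were chosen with earlier results of these data known. Values in every sample were given for the 5 genes with the largest and the 5 with the smallest log2 fold change in adult against fetal liver, the leading gene of each role per length, the genes called between the sexes or by the interaction and the 2 largest that were not called. Of the other pathway genes, Ppara and the 3 with the largest change in each direction were named, and a further gene that the rule named is not reported here. Replicate numbers shared between groups marked no pairing: deviations of same-numbered livers correlated at r = -0.062 to 0.051 over 24 pairs. No 2 libraries held the same values.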

Additional observations from a re-analysis of the deposited data

Results flagged for a closer look

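For 10 of the 37 genes the difference between the sexes differed between adult and fetal liver in the interaction test (edgeR, 48 livers, log2 male/female in adult minus fetal ± SE, adjusted p). It was positive for Scp2 (1.33 ± 0.068, adjusted p = 5.36e-23), Pex11a (0.92 ± 0.20, adjusted p = 0.000391), Acaa1a (0.74 ± 0.10, adjusted p = 9.32e-08), Acaa1b (0.60 ± 0.13, adjusted p = 0.000438), Hsd17b4 (0.58 ± 0.065, adjusted p = 4.97e-10) and Phyh (0.58 ± 0.067, adjusted p = 1.33e-09). It was negative for Acot3 (-4.55 ± 0.37, adjusted p = 2.17e-13), Acot4 (-1.46 ± 0.16, adjusted p = 2.68e-10), Pdk4 (-0.97 ± 0.26, adjusted p = 0.00371) and Acot2 (-0.92 ± 0.24, adjusted p = 0.00253).

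Among the 6 male eight-cell embryos, 1 had a Hadhb level of 66.3 CPM and the next lowest had 141 CPM. That gap was 0.719 of the range of the group, above the critical value of 0.625 for 6 samples. It was the 1 gap past that value among 43 groups of 6 embryos, where chance alone flags about 1 group in 20.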

How the results depend on the processing

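No result changed sign past its threshold under any alternative run. Of the values of the genes named by the rule, 280 kept their side of the threshold, 7 moved past it and 5 fell short of it. Over all 37 genes the hepatocyte scaling alone took 10 calls away, as listed in the report.

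In adult against fetal liver, the hepatocyte scaling left 19 genes of the 37 higher and 1 lower, the livers with at least 40% of mapped reads on genes gave 1 lower, and without the fold threshold 1 was lower and 11536 of all genes were called, against 5546. Between adult sexes, dropping the fold threshold gave 7 genes of the 37 higher and 14 lower in males and 3400 of all genes, against 984, and dropping the filter gave 1518. Between fetal sexes, dropping the fold threshold gave 1 higher and 20 lower and 4807 of all genes, against 600, dropping the filter gave 1057, the share of reads on genes as covariate gave 27, and that covariate without the fold threshold, added after the data were seen, gave 109, with 1 of the 37 lower. For the interaction, dropping the fold threshold gave 12 larger and 7 smaller ratios and 4384 of all genes, against 1787.

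In fetal liver against ES lines, 0 of the 37 were lower with DESeq2, its size factors or no filter, and 0 to 1 when single ES lines were left out. Without the fold threshold 12806 of all genes were called, against 8060. In ES lines against embryos 11 were higher with DESeq2 size factors. Between ES lines of each sex, DESeq2 gave 1 higher, no fold threshold 1 lower, and leaving out single lines 0 to 4 higher, 0 to 2 lower and 0 to 3070 of all genes, against 1205. Between embryos of each sex DESeq2 called 80 of all genes, against 24. The correlation of Pdk4 with Acot1 in adult liver moved to 0.0046, 0.15 and 0.81 as given above, and in the 8 livers with the lower share of reads on genes it was 0.72 for Acot2 and 0.59 for Pex11a. The cause of these shifts was not tested, other than that dropping a threshold or filter lets more genes be called.

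With the replicate block, 29 of the 37 genes were higher and 0 lower in adult against fetal liver, 27 and 1 in fetal liver against ES lines, and 8 and 7 in ES lines against embryos. Same-numbered samples share only a number: over 4 pairs each, deviations correlated at r = -0.030 to 0.013 between fetal liver and ES lines and 0.0016 to 0.028 between ES lines and embryos. Depth limits the low genes most: in adult liver 3 reads equal up to 1.91 CPM, above the lowest Acot3 values in males. The lowest adult values of Acot2 (2.66 CPM) and Pdk4 (3.57 CPM) lay not far above it.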
